A study of Homo sapiens with 9 samples.

Results

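SR proteins, heterogeneous nuclear ribonucleoproteins (hnRNPs) and CLK kinases were followed across 9 arrays of MDA-MB-231 cells, a human breast cancer line grown from a pleural effusion. Genes were taken by their symbols: SRSF and a number, HNRNP and letters or digits without pseudogenes, and CLK1 to CLK4. The rule found 32 of 22109 genes measured with 1 symbol: 10 SR protein genes, 19 hnRNP genes and 3 CLK genes. Each of the 32 had 1 probe set. The probe sets of CLK1, SRSF9, HNRNPK, HNRNPH2 and HNRNPUL2 also carried the symbol of another gene, so these genes were not analysed here.

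SR proteins carry RNA recognition motifs and a tail rich in arginine and serine, bind exonic enhancers, and help to recruit the splicing machinery to nearby splice sites. The hnRNPs coat nascent transcripts and often oppose SR proteins at the same exons, and many also act in the export, stability and translation of mRNA. CLK kinases phosphorylate the serines of the SR tail in the nucleus and so release SR proteins from nuclear speckles. Several SR protein and CLK genes are known to limit their own expression through alternatively spliced transcripts that are degraded or kept in the nucleus, which values for a whole gene do not separate.

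The study compared 3 groups with 3 arrays each. The 20 h group received YM-155 at 14.6 ng/ml for 20 h, a concentration that the labels give as the LC50. In the 8 h group, YM-155 was added in increments to a total of 83 ng/ml over 8 h. YM-155 (sepantronium bromide) is a small molecule first described as a suppressor of survivin (BIRC5) expression. Control cells had no treatment, and neither a vehicle nor a culture time is given for them. Because the 8 h and 20 h groups differ in both concentration and time, the effects of these cannot be told apart. All groups share a single cell line, and nothing says that the arrays of a group came from separate cultures, so p-values here reflect array-to-array spread alone, which may be technical.

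Values are log2 RMA summaries, where a difference of 1 is a 2-fold change, and they compare 1 gene across arrays, not genes with each other. The medians of the 9 arrays over all probe sets lay between 3.11 and 3.20. Control replicate 3 stood apart. Its differences from control replicates 1 and 2 had SDs of 0.312 and 0.313 in the 11054 genes with a mean above the median gene, against 0.187 between the other 2 controls. It lay over 0.3 from the mean of the other controls for 11 of the 32 genes (34.4%) and for 29% of the 11054 genes. The closest pair was 8 h replicates 1 and 2 (SD 0.147). Marker genes of the line and of other cell types are given after the splicing genes.

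At 20 h, SRSF3, SRSF6, SRSF7, HNRNPA0, HNRNPC and CLK3 were higher than in control cells, while SRSF4, HNRNPA1L2, HNRNPA3, HNRNPD, HNRNPM, HNRNPR and HNRNPU were lower. The largest difference, in HNRNPA0, was 2.02-fold. Thus 6 of the 32 genes were called higher and 7 lower (limma, Benjamini-Hochberg adjusted p under 0.05), a share of 40.6% against 30.3% of all genes. Most of the 32 genes lay in the upper part of the array's range, where calls were more frequent: 12 of the 29 above the median level were called (41.4%), against 51.1% of all genes above it. The median log2 difference of the 32 genes was -0.09, beside 0.03 over all genes tested. Without control replicate 3, 7 were higher and 11 lower, beside 3161 higher and 3730 lower of all 22109 genes in that fit.

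At 8 h the differences from control were fewer. SRSF3, SRSF5, SRSF6 and HNRNPC were higher and HNRNPAB was lower, the largest being HNRNPC at 1.58-fold. These 4 higher and 1 lower calls came to 15.6% of the 32 genes, against 12.2% of all genes. Above the median level, 5 of 29 were called (17.2%), against 21.9% of all genes there. The count of higher genes was 2 without control replicate 1, 1 without 8 h replicate 1 and 2 without 8 h replicate 3, and the count of lower genes was 2 without control replicate 3.

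Set directly against 8 h cells, 20 h cells had higher SRSF2, SRSF7, HNRNPA0 and HNRNPAB and lower SRSF4, SRSF5, HNRNPA1L2, HNRNPA3, HNRNPD, HNRNPLL, HNRNPM, HNRNPR and CLK4. The 4 higher and 9 lower calls came to 40.6% of the 32 genes, against 22.6% of all genes. The share was 41.4% of the 29 above the median level, against 38.2% of all genes there. Scaling moved the split, to 4 higher and 5 lower after a further quantile normalization and to 3 higher and 11 lower after centring each array on its median. Single arrays moved it too: the lower count was 5, 5 and 3 without 8 h replicate 1, 2 or 3 and 4 and 5 without 20 h replicate 2 or 3, and the higher count was 2 and 1 without 8 h replicate 1 or 2. Both comparisons with untreated cells share the control arrays, so their values are given side by side and not as independent evidence. Over the 3 comparisons, 18 of the 32 genes were called at least once and 14 never. The share of all genes called at least once was not counted, so these numbers have no background.

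**Figure D1:**
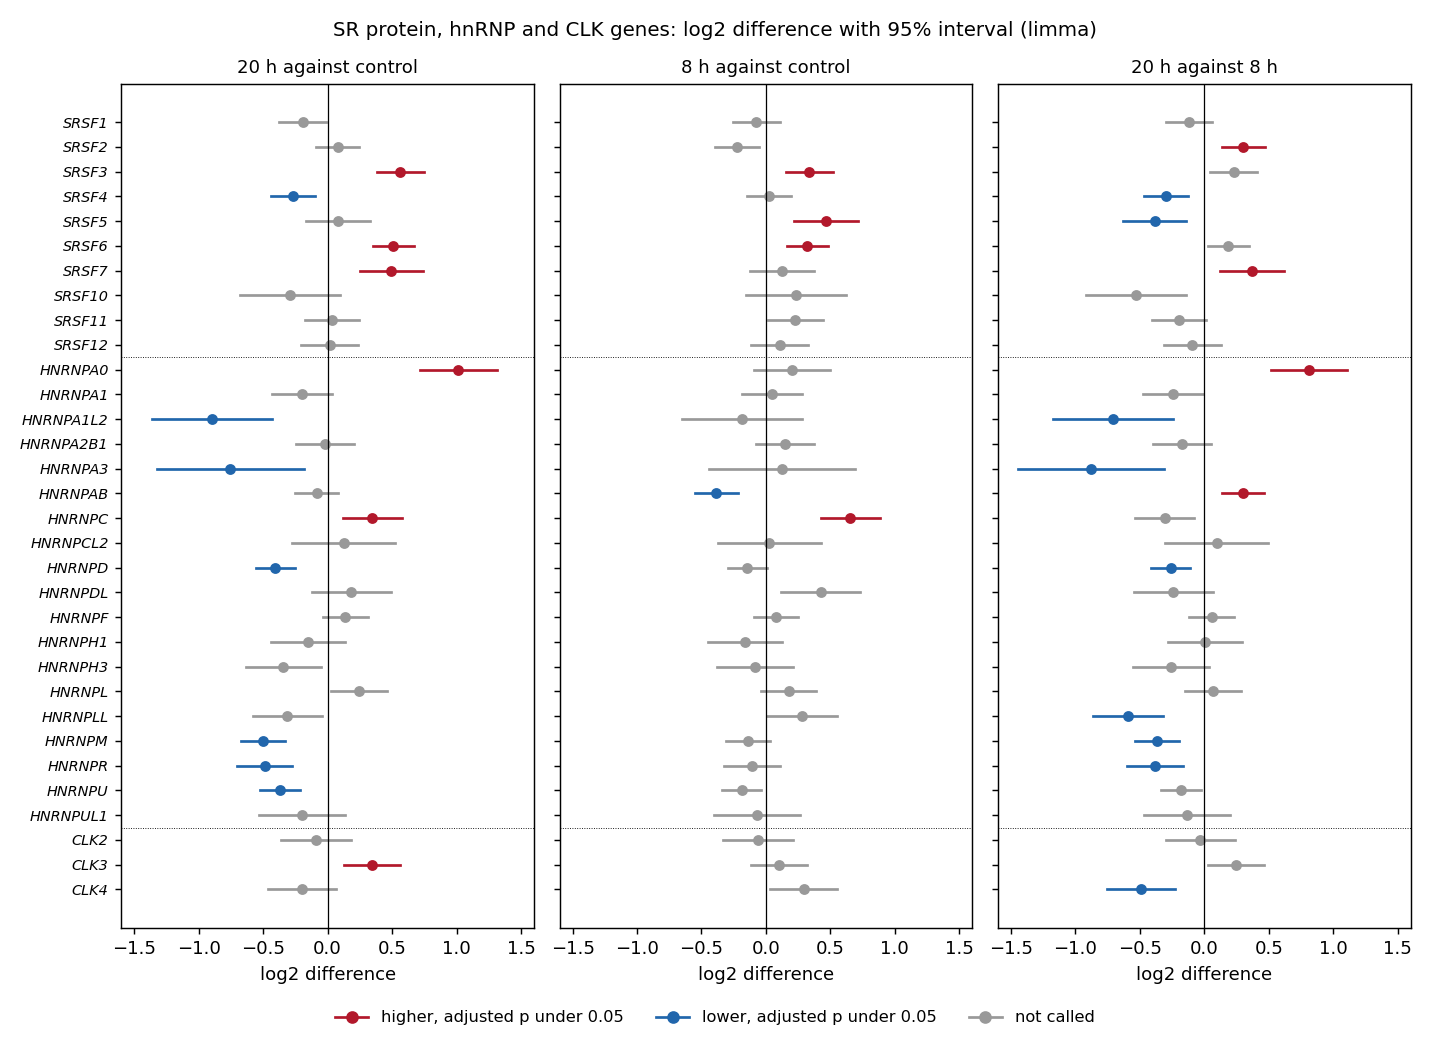
Log2 differences of the 32 genes (points) with 95% confidence intervals from limma (lines) in 3 panels, 20 h against control, then 8 h against control, then 20 h against 8 h. Red marks higher and blue lower genes at an adjusted p under 0.05, grey marks genes not called, and dotted lines part SR proteins, hnRNPs and CLK kinases. HNRNPA0 lies farthest to the right at 20 h against control (1.01) and HNRNPC at 8 h against control (0.66).

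Among the SR proteins, 3 of 10 genes were higher and 1 lower at 20 h, and 3 were higher and none lower at 8 h. Of all genes, 13.1% were called higher and 17.2% lower at 20 h, and 5.93% and 6.28% at 8 h. In either direction, 40% of the 10 SR protein genes were called at 20 h and 30% at 8 h. Of genes above the median level, 51.1% and 21.9% were called. The median log2 difference of the 10 was 0.06 at 20 h and 0.18 at 8 h. At 8 h the higher count was 1 without control replicate 1, 0 without 8 h replicate 1 and 1 without 8 h replicate 3, while at 20 h it was 3 whichever array was left out. The single lower gene at 20 h, SRSF4, was lost without 20 h replicate 2 or either of control replicates 1 and 2, and SRSF1 joined it without control replicate 3.

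SRSF3, the smallest SR protein, also serves as an adaptor for mRNA export. Its log2 values were 10.53, 10.72 and 10.63 in 20 h cells, 10.40, 10.43 and 10.36 in 8 h cells, and 10.08, 10.12 and 9.97 in control cells. The 3 groups did not overlap, and all treated arrays lay above all controls. The log2 difference from control was 0.56 ± 0.08 (SE) at 20 h (limma adjusted p = 0.000413) and 0.34 ± 0.08 at 8 h (limma adjusted p = 0.0245). The call at 20 h held under every alternative run, whereas that at 8 h was lost without control replicate 1 or 3 or any 1 of the 8 h arrays (adjusted p up to 0.0844). Between 20 h and 8 h the difference of 0.23 (95% interval 0.05 to 0.41) was not called (limma adjusted p = 0.0724).

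SRSF6, which belongs with SRSF4 and SRSF5 to the SR proteins that have a pair of RNA recognition motifs, had a like order. It read 9.45, 9.55 and 9.47 in 20 h cells, 9.36, 9.28 and 9.27 in 8 h cells, and 8.95, 8.97 and 9.02 in control cells. Again no groups overlapped, and the control arrays were the lowest. SRSF6 was higher by 0.51 ± 0.07 (SE) at 20 h (limma adjusted p = 0.000366) and by 0.32 ± 0.07 at 8 h (limma adjusted p = 0.0166). The 8 h call was lost without 8 h replicate 1 or either of control replicates 1 and 2 (adjusted p up to 0.0686), and the 20 h call under no alternative run. From 8 h cells, 20 h cells differed by 0.19 (95% interval 0.03 to 0.35), which was not called (limma adjusted p = 0.0952).

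SRSF7, a close relative of SRSF3 that also takes part in mRNA export, was higher at 20 h than in both other groups. Its group means were 8.40 ± 0.12 in 20 h cells, 8.03 ± 0.09 in 8 h cells and 7.90 ± 0.19 in control cells (SD, n = 3 each). The 20 h arrays lay above all 6 others, and the 8 h and control arrays overlapped. The log2 difference was 0.49 for 20 h against control (limma adjusted p = 0.00611), held under every alternative run, and 0.37 for 20 h against 8 h (limma adjusted p = 0.0362), which was lost without any 1 of 5 arrays, namely 20 h replicates 1 and 3 and the 3 replicates at 8 h (adjusted p up to 0.112). The call for 20 h against 8 h was also lost after centring each array on its median and when replicate number was added to the fit. For 8 h against control the log2 difference was 0.12 (95% interval -0.12 to 0.37) and was not called.

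SRSF5 was higher at 8 h than in both other groups. Its means were 7.35 ± 0.05 in 20 h cells, 7.73 ± 0.09 in 8 h cells and 7.27 ± 0.22 in control cells (SD, n = 3 each), so the 8 h arrays were highest and the 20 h arrays overlapped the controls. The 8 h increase of 0.46 (limma adjusted p = 0.0225) was lost without 8 h replicate 1 or 3, and the 20 h against 8 h difference of -0.39 (limma adjusted p = 0.0313) without any 1 of the 6 treated arrays. That difference was also lost after a further quantile normalization and when replicate number was added to the fit. SRSF4 was lower at 20 h, with means of 7.70 ± 0.10 in 20 h cells, 8.00 ± 0.04 in 8 h cells and 7.97 ± 0.02 in control cells (SD, n = 3 each). Its log2 differences were -0.27 for 20 h against control (limma adjusted p = 0.0222) and -0.30 for 20 h against 8 h (limma adjusted p = 0.0196). The second was lost without 8 h replicate 1, 8 h replicate 2 or 20 h replicate 2, and after a further quantile normalization.

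SRSF2, an SR protein that largely stays in the nucleus, was called only between the treated groups. It averaged 9.73 ± 0.04 in 20 h cells, 9.42 ± 0.05 in 8 h cells and 9.65 ± 0.07 in control cells (SD, n = 3 each). The 8 h arrays were the lowest and overlapped neither other group. The difference was 0.30 for 20 h against 8 h (limma adjusted p = 0.016) and -0.22 for 8 h against control, which was not called (limma adjusted p = 0.0885). The call for 20 h against 8 h was lost without 8 h replicate 2 and after a further quantile normalization. It was also lost with 8 h replicates 1 and 2 counted as 1.

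The remaining SR protein genes SRSF1, SRSF10, SRSF11 and SRSF12 were called in no comparison. SRSF1, the prototype of the family and a classic antagonist of HNRNPA1, differed from control by -0.19 (95% interval -0.38 to -0.01) at 20 h, and without control replicate 3 by -0.26, which was then called (limma adjusted p = 0.0268). SRSF10, which turns into a splicing repressor when it loses its phosphates, had the largest uncalled difference of the family, -0.53 (95% interval -0.92 to -0.14) for 20 h against 8 h (limma adjusted p = 0.0541). SRSF12 was near the bottom of the range at 1.78 to 2.14 on all arrays.

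**Figure D2:**
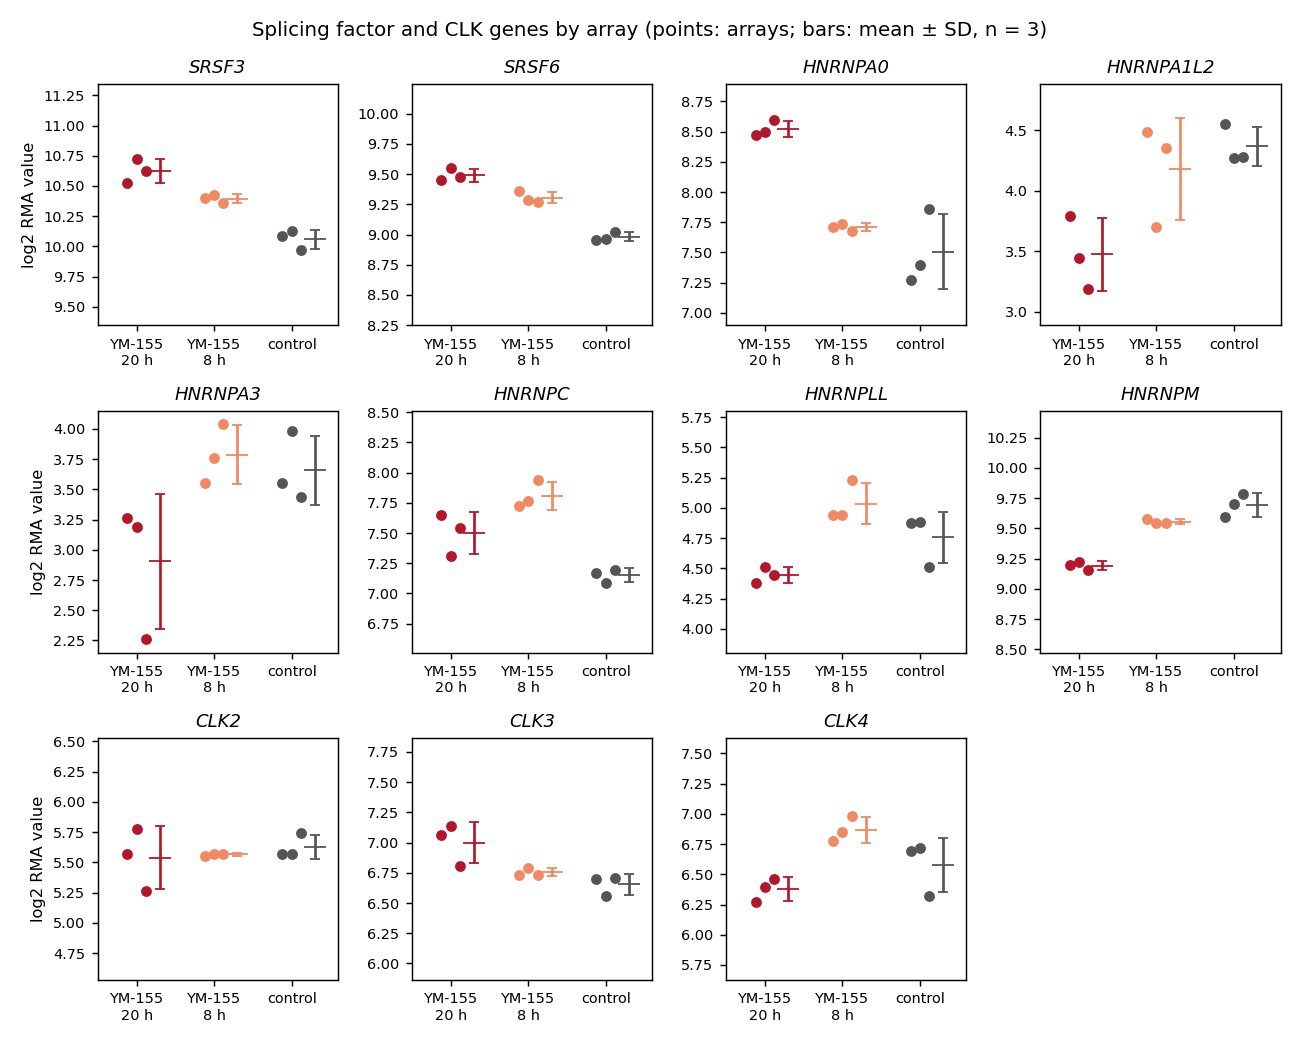
Log2 RMA value on each array (points) with the group mean ± SD of 3 arrays (bars beside the points) for the 8 SR protein and hnRNP genes called with a log2 difference of at least 0.5 and for the 3 CLK genes, with 20 h, 8 h and control cells left to right. Vertical axes differ in position between genes. SRSF3 and SRSF6 have control arrays lowest and 20 h arrays highest without overlap, and HNRNPM has the 20 h arrays lowest.

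The hnRNP genes were more often lower than higher at 20 h. Of 19 genes, 2 were higher (HNRNPA0 and HNRNPC) and 6 lower (HNRNPA1L2, HNRNPA3, HNRNPD, HNRNPM, HNRNPR and HNRNPU), with a median log2 difference of -0.20. The 42.1% called compare with 30.3% of all genes (13.1% higher and 17.2% lower) and with 51.1% of genes above the median level. Lower calls made up 6 of the 8, beside 3810 of 6704 over all genes, and whether these shares differ was not tested. In a fit to only the genes above the median level, 3694 were lower and 2456 higher. Among the 6, HNRNPA1L2 and HNRNPA3 are uncertain, as described below. At 8 h, HNRNPC was higher and HNRNPAB lower, which is 10.5% of the 19 against 12.2% of all genes (5.93% higher and 6.28% lower), with a median of 0.03. The higher count at 20 h was 1 without 20 h replicate 1 or 3 or control replicate 1 or 2. Without control replicate 3, the 8 h counts were 2 higher and 2 lower, and the 20 h counts 3 higher and 8 lower.

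HNRNPA0, which binds AU-rich elements and stabilises stress-response mRNAs, had the largest difference of the 32 genes. Its log2 values were 8.47, 8.50 and 8.60 in 20 h cells, 7.71, 7.74 and 7.68 in 8 h cells, and 7.27, 7.39 and 7.86 in control cells. All 20 h arrays were above the others, and the 8 h arrays lay within the range of the controls, of which replicate 3 was the highest. HNRNPA0 was higher at 20 h by 1.01 ± 0.13 (SE) against control (limma adjusted p = 0.000219) and by 0.81 ± 0.13 against 8 h (limma adjusted p = 0.00176), and both calls held under every alternative run. At 8 h it differed from control by 0.20 (95% interval -0.10 to 0.50) and was not called. Without control replicate 3 that difference was 0.38 and was called (limma adjusted p = 0.0161).

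HNRNPC, the tetramer-forming protein that binds uridine tracts and keeps cryptic exons out of mRNA, had its highest values at 8 h. It read 7.65, 7.31 and 7.54 in 20 h cells, 7.72, 7.76 and 7.94 in 8 h cells, and 7.17, 7.08 and 7.20 in control cells. No groups overlapped, and the controls were lowest. The difference from control was 0.66 ± 0.10 (SE) at 8 h (limma adjusted p = 0.00258), which held under every alternative run. At 20 h it was 0.35 ± 0.10 (limma adjusted p = 0.0267) and was lost without 20 h replicate 1 or 3 or control replicate 1 or 2 (adjusted p up to 0.0941). The difference of 20 h from 8 h cells, -0.31 (95% interval -0.54 to -0.08), was not called (limma adjusted p = 0.0573). Whether HNRNPC shares probes with the HNRNPC-like copies on the array was not checked.

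HNRNPM, a splicing regulator studied for its part in CD44 splicing and the epithelial-mesenchymal transition, was lower at 20 h. It read 9.19, 9.23 and 9.16 in 20 h cells, 9.58, 9.55 and 9.55 in 8 h cells, and 9.59, 9.70 and 9.79 in control cells. The 20 h arrays lay below the others, and the 8 h arrays lay just below the controls without overlap. HNRNPM fell by 0.50 ± 0.08 (SE) on the log2 scale against control (limma adjusted p = 0.000575) and by 0.37 ± 0.08 against 8 h (limma adjusted p = 0.00651), and both calls held under every alternative run. The 8 h difference from control was -0.14 (95% interval -0.31 to 0.03).

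HNRNPD, HNRNPR and HNRNPU were lower at 20 h with smaller differences. HNRNPD (AUF1), which binds AU-rich elements and directs mRNA decay, averaged 7.49 ± 0.03 in 20 h cells, 7.75 ± 0.002 in 8 h cells and 7.89 ± 0.04 in control cells (SD, n = 3 each). HNRNPR averaged 8.33 ± 0.05 in 20 h cells, 8.71 ± 0.11 in 8 h cells and 8.81 ± 0.15 in control cells. HNRNPU, a chromatin-associated protein also known as scaffold attachment factor A, averaged 8.26 ± 0.04 in 20 h cells, 8.44 ± 0.001 in 8 h cells and 8.63 ± 0.04 in control cells. For each gene the 20 h arrays lay below every other array. The differences from control were -0.40, -0.49 and -0.37 for HNRNPD, HNRNPR and HNRNPU (limma adjusted p = 0.00118, 0.0031 and 0.00205), and all 3 calls held under every alternative run. Against 8 h cells, HNRNPD at -0.26 (limma adjusted p = 0.0209) was lost without any 1 of the 8 h arrays or without 20 h replicate 2. It was also lost after a further quantile normalization and when replicate number was added to the fit. HNRNPR at -0.38 (limma adjusted p = 0.0179) was lost without 8 h replicate 3, 20 h replicate 2 or 20 h replicate 3, and HNRNPU at -0.18 was not called.

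HNRNPLL, known from lymphocytes as a regulator of CD45 splicing, separated the treated groups. It read 4.38, 4.51 and 4.45 in 20 h cells, 4.94, 4.94 and 5.23 in 8 h cells, and 4.87, 4.88 and 4.51 in control cells. The 20 h arrays were the lowest and the 8 h arrays the highest, with control replicate 3 close to the 20 h arrays. The 20 h against 8 h difference was -0.59 ± 0.12 (SE; limma adjusted p = 0.00581) and held under every alternative run. Against control, the 20 h difference of -0.31 was not called (limma adjusted p = 0.08), but without control replicate 3 it was -0.43 and was called (limma adjusted p = 0.0121).

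HNRNPAB, an A/B-type hnRNP that shuttles between nucleus and cytoplasm, was lower at 8 h than in both other groups. It averaged 9.28 ± 0.04 in 20 h cells, 8.98 ± 0.05 in 8 h cells and 9.37 ± 0.07 in control cells (SD, n = 3 each). The 8 h arrays were below all others, and the 20 h and control arrays overlapped. The 8 h difference from control was -0.39 (limma adjusted p = 0.00782) and held under every alternative run. For 20 h against 8 h it was 0.30 (limma adjusted p = 0.0157), lost without 8 h replicate 1 or 2, and for 20 h against control -0.09 (95% interval -0.25 to 0.08).

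HNRNPA1L2 and HNRNPA3 had low values and are uncertain, because HNRNPA1L2 is a near-copy of HNRNPA1 and both HNRNPA1 and HNRNPA3 have pseudogene copies on the array, whose sequences can share probes. HNRNPA1L2 read 3.79, 3.44 and 3.19 in 20 h cells, 4.49, 3.70 and 4.36 in 8 h cells, and 4.55, 4.27 and 4.28 in control cells. Its 20 h arrays were below the controls but overlapped the 8 h arrays through 8 h replicate 2. The difference was -0.90 ± 0.21 (SE) for 20 h against control (limma adjusted p = 0.0079), held under every alternative run. For 20 h against 8 h it was -0.71 ± 0.21 (limma adjusted p = 0.0344), lost without 8 h replicate 1, 8 h replicate 3, 20 h replicate 2 or 20 h replicate 3. This call was also lost with array weights and in a fit to only the arrays of the groups compared. The probe set of HNRNPA1 itself differed by -0.20 (95% interval -0.43 to 0.03) for 20 h against control and was not called.

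HNRNPA3, an A/B-type protein like HNRNPA1, read 3.26, 3.19 and 2.26 in 20 h cells, 3.55, 3.76 and 4.04 in 8 h cells, and 3.55, 3.98 and 3.44 in control cells. The 20 h arrays were lowest, with replicate 3 far below the other 2. Its 20 h difference was -0.75 ± 0.25 (SE) against control (limma adjusted p = 0.0475) and -0.88 ± 0.25 against 8 h (limma adjusted p = 0.0316). The first was lost under 10 of 19 alternatives, among them the omission of any 1 control or 8 h array or of 20 h replicate 3 (adjusted p up to 0.167). The second was lost without 8 h replicate 2, 8 h replicate 3 or 20 h replicate 3.

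The other 9 hnRNP genes, HNRNPA1, HNRNPA2B1, HNRNPCL2, HNRNPDL, HNRNPF, HNRNPH1, HNRNPH3, HNRNPL and HNRNPUL1, were called in no comparison. HNRNPDL had the largest 8 h difference among them, 0.42 (95% interval 0.12 to 0.73; limma adjusted p = 0.079), and HNRNPH3, a relative of the G-run binding proteins HNRNPF and HNRNPH1, the largest at 20 h, -0.34 (95% interval -0.64 to -0.05; limma adjusted p = 0.0792). Without control replicate 3, HNRNPH1 (-0.32, limma adjusted p = 0.0131) and HNRNPH3 (-0.48, limma adjusted p = 0.00854) were called lower at 20 h and HNRNPL, which binds CA repeats, was called higher (0.32, limma adjusted p = 0.0278). HNRNPCL2, 1 of several near-identical HNRNPC-like copies, held the same value, 3.06, on 4 arrays. Equal values on 3 or more arrays occurred for 4 of the 32 genes and for 23.4% of all genes, so small SDs can understate the spread of the measurement.

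Of the CLK kinases, CLK3 was higher at 20 h and none of the 3 was called at 8 h, where 12.2% of all genes were. At 20 h, 33.3% of the 3 were called, beside 30.3% of all genes (13.1% higher) and 51.1% of genes above the median level. CLK3 read 7.06, 7.13 and 6.80 in 20 h cells, 6.73, 6.79 and 6.74 in 8 h cells, and 6.70, 6.56 and 6.71 in control cells. The 20 h arrays were highest, the lowest of them just above the 8 h arrays. The 20 h difference from control was 0.35 ± 0.10 (SE; limma adjusted p = 0.0209) and was lost without control replicate 2, 20 h replicate 1 or 20 h replicate 2 (adjusted p up to 0.0789). Against 8 h cells it was 0.25 (95% interval 0.03 to 0.46) and was not called (limma adjusted p = 0.102).

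CLK4 ran the other way between the treated groups. It read 6.27, 6.40 and 6.46 in 20 h cells, 6.77, 6.85 and 6.99 in 8 h cells, and 6.69, 6.72 and 6.32 in control cells. The 8 h arrays were above all others, and the 20 h arrays overlapped the controls only through control replicate 3. The 20 h against 8 h difference was -0.49 ± 0.12 (SE; limma adjusted p = 0.0132) and was lost without 8 h replicate 3 and after a further quantile normalization. Against control, CLK4 differed by -0.20 (95% interval -0.46 to 0.06) at 20 h and by 0.29 (95% interval 0.03 to 0.55) at 8 h, and neither was called. Without control replicate 3 the 20 h difference was -0.33 and was called (limma adjusted p = 0.0284).

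CLK2 read 5.57, 5.78 and 5.26 in 20 h cells, 5.56, 5.57 and 5.57 in 8 h cells, and 5.57, 5.57 and 5.74 in control cells. The groups overlapped, and 5 of the 9 arrays held the identical value of 5.57. The difference from control was -0.09 (95% interval -0.36 to 0.18) at 20 h and -0.06 (95% interval -0.33 to 0.21) at 8 h.

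Promoter sequences are shown for HNRNPA0, SRSF3, SRSF6 and HNRNPC, which were higher than in control cells in at least 1 treated group, and for HNRNPM, which was lower. RefSeq promoters (GRCh38.p14), from 250 bases before to 50 bases after the gene start, were found for 30 of the 32 genes, with 43 promoters in all. They are printed 5′ to 3′ on the strand of the gene, and capitals mark matches on either strand to 5 short motifs. These were the CCAAT box, with the letters of its name, the GC box with the letters GGGCGG, and the TATA box with the letters TATAAA. The others were the core of the cAMP response element (CRE core), spelled TGACG, and the site of ETS factors, spelled CCGGAA. No motif overlapped another in the promoters shown. HNRNPA0 lies at chr5:137754314-137754613 on the minus strand, SRSF3 at chr6:36594112-36594411 on the plus strand and SRSF6 at chr20:43457646-43457945 on the plus strand. HNRNPC lies at chr14:21269393-21269692 on the minus strand and HNRNPM at chr19:8444725-8445024 on the plus strand.
HNRNPA0: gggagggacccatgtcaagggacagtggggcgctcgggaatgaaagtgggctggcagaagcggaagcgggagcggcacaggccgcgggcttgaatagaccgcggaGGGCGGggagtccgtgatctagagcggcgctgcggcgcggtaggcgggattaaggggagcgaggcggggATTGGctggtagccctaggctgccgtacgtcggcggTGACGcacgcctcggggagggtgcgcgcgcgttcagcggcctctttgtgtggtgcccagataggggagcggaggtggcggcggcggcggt
SRSF3: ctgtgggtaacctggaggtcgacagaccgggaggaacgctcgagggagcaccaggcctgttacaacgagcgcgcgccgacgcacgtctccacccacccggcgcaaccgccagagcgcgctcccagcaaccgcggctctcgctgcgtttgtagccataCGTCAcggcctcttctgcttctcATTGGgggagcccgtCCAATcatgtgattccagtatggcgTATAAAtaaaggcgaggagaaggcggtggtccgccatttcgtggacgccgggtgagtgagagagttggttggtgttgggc
SRSF6: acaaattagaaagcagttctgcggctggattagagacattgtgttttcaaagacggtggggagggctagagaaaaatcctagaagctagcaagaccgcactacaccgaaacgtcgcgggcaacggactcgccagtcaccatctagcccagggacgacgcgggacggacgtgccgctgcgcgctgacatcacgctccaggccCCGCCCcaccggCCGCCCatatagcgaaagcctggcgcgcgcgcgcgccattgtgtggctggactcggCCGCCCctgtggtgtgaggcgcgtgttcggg
HNRNPC: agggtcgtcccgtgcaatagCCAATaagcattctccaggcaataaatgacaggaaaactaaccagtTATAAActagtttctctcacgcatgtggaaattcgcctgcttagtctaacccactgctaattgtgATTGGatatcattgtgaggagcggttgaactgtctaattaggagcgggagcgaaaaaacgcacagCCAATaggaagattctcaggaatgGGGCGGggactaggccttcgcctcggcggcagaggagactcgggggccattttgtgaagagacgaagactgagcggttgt
HNRNPM: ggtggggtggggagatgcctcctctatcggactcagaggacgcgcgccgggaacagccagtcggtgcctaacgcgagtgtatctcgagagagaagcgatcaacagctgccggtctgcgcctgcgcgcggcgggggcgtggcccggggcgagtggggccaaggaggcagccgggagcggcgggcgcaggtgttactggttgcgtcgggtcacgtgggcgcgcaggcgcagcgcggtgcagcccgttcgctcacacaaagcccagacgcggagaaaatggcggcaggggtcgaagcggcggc

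The HNRNPA0 promoter held 1 GC box, 1 CCAAT box and 1 CRE core, which begin at positions -145, -76 and -40 from the gene start, and that of HNRNPM held none of the 5 motifs. SRSF3 had a TATA box at -30, CCAAT boxes at -70 and -55 and a CRE core at -93. SRSF6 had 3 GC boxes, and HNRNPC had 3 CCAAT boxes, a GC box at -30 and a TATA box at -184. Among the 43 promoters, a CCAAT box occurred in 44.2%, against 34.6% of all 35116 promoters in the table, and a GC box in 65.1%, against 45%. A TATA box occurred in 14%, against 11.5%, a CRE core in 46.5%, against 24.6%, and an ETS site in 23.3%, against 17.2%. Their median GC content was 64.7%, against 58.7% over all promoters, and the difference in GC content was not taken out of these shares. Of the 6 genes higher and the 7 lower at 20 h, 5 and 5 had a promoter with a GC box, 4 and 3 one with a CCAAT box, 4 and 3 one with a CRE core, 3 and 1 one with a TATA box, and 1 and 4 one with an ETS site. In these counts by gene, any promoter of the gene could hold the motif, so they cannot be set against the shares of promoters. No such count was made over all genes. All of these are counts of letters in fixed windows and do not show binding.

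Genes that work with the SR proteins were read from a separate list. Of 21 measured SR-like proteins and RS-domain cofactors, 7 were higher and 4 lower at 20 h and 6 higher and 0 lower at 8 h. The shares called, 52.4% at 20 h and 28.6% at 8 h, compare with 30.3% and 12.2% of all genes and with 51.1% and 21.9% of genes above the median level. RSRC2 was higher by 0.65 at 20 h and 0.84 at 8 h, and TRA2A, an SR-like splicing activator, by 0.40 and 0.61 (limma adjusted p from 0.000752 to 0.00474). TNPO3, the import receptor that carries SR proteins into the nucleus, was lower by -0.78 at 20 h (limma adjusted p = 4.52e-05), with -0.04 at 8 h. The 20 h counts were 11 higher and 3 lower without control replicate 3, and 2 lower without control replicate 1.

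Outside the CLK family, a list held 8 measured kinases: SRPK1, SRPK2, SRPK3, DYRK1A, DYRK1B, DYRK2, CDK12 and CDK13. Not all of them are dedicated SR protein kinases. At 20 h, 5 were higher and 1 lower, and at 8 h 2 were higher. Of all genes, 13.1% were higher and 17.2% lower at 20 h and 5.93% higher at 8 h. The shares called, 75% and 25%, compare with 51.1% and 21.9% of genes above the median level. SRPK3, the only SRPK gene called higher at 20 h, lay between 2.951 and 3.635, below the median gene level of 3.89. SRPK2 was not called. CDK13, a transcription-linked kinase with an RS domain, was higher by 0.57 at 20 h and 0.86 at 8 h (limma adjusted p = 0.00204 and 0.000654). DYRK1B was higher by 0.71 and 0.50 (limma adjusted p = 0.00144 and 0.0278). SRPK1, the main cytoplasmic SR protein kinase, was lower at 20 h by -0.65 (limma adjusted p = 0.000104), with -0.04 at 8 h. The higher count was 3 at 20 h without 20 h replicate 1, and 1 at 8 h without control replicate 1 or 2 or any 1 of the 8 h arrays.

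Of 41 measured hnRNP-like and other splicing regulators, 6 were higher and 12 lower at 20 h and 2 were higher and 2 lower at 8 h. That is 43.9% called at 20 h and 9.76% at 8 h, against 30.3% and 12.2% of all genes and 51.1% and 21.9% of those above the median level. TIA1, which binds uridine-rich sequence after weak 5′ splice sites, was lower by -1.67 at 20 h and -0.81 at 8 h (limma adjusted p = 8.67e-05 and 0.0211). MBNL3, of the muscleblind family, was lower by -1.41 at 20 h (limma adjusted p = 1.61e-05) and TARDBP, which encodes TDP-43, by -0.91 (limma adjusted p = 5.39e-05). KHDRBS3 was higher by 0.84 at 20 h and 0.51 at 8 h (limma adjusted p = 0.000153 and 0.0103). The lower count at 8 h was 0 without control replicate 2 or either of 8 h replicates 1 and 2. It was 1 without control replicate 1 or 3, 8 h replicate 3 or 20 h replicate 3.

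Core spliceosome proteins had 6 higher and 21 lower of 60 at 20 h and 2 higher and 11 lower at 8 h. These shares of 45% and 21.7% were above the 30.3% and 12.2% of all genes but not above the 51.1% and 21.9% of genes over the median level. LSM8, of the ring that binds U6 RNA, was lower by -0.92 at 20 h (limma adjusted p = 2.19e-05), and the helicase DDX46 by -0.90 (limma adjusted p = 0.000122). SF3B5, a subunit of SF3b, was higher by 0.91 at 20 h (limma adjusted p = 7.23e-05). At 8 h, the Sm protein SNRPD1 was lower by -0.90 (limma adjusted p = 0.00129) and PRPF39 higher by 0.98 (limma adjusted p = 0.00307). The 8 h count of lower genes was 4 without control replicate 1, 2 without control replicate 2, 4, 5 and 3 without 8 h replicates 1, 2 and 3, and 7 without 20 h replicate 2. The 8 h count of higher genes was 1 without control replicate 1, any 1 of the 8 h arrays, or 20 h replicate 1 or 3, and the 20 h count of higher genes was 10 without control replicate 3.

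Among 17 exon junction and nonsense-mediated decay factors, which act on many of the alternatively spliced SR protein transcripts, 5 were higher and 5 lower at 20 h and 2 higher and 2 lower at 8 h. The 58.8% called at 20 h and 23.5% at 8 h compare with 30.3% and 12.2% of all genes, and with 51.1% and 21.9% of genes above the median level. EIF4A3, the helicase core of the exon junction complex, was higher by 0.65 at 20 h and 0.39 at 8 h (limma adjusted p = 5.19e-05 and 0.00482). MAGOHB, another core member, was lower by -1.14 at 20 h (limma adjusted p = 0.00141), and the cap-binding subunit NCBP1 by -1.13 at 20 h and -0.47 at 8 h (limma adjusted p = 1.4e-05 and 0.0112). The 8 h count of higher genes was 1 without control replicate 1 or 2, any 1 of the 8 h arrays or 20 h replicate 2, and that of lower genes 1 without control replicate 1 or 8 h replicate 1.

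**Figure D3:**
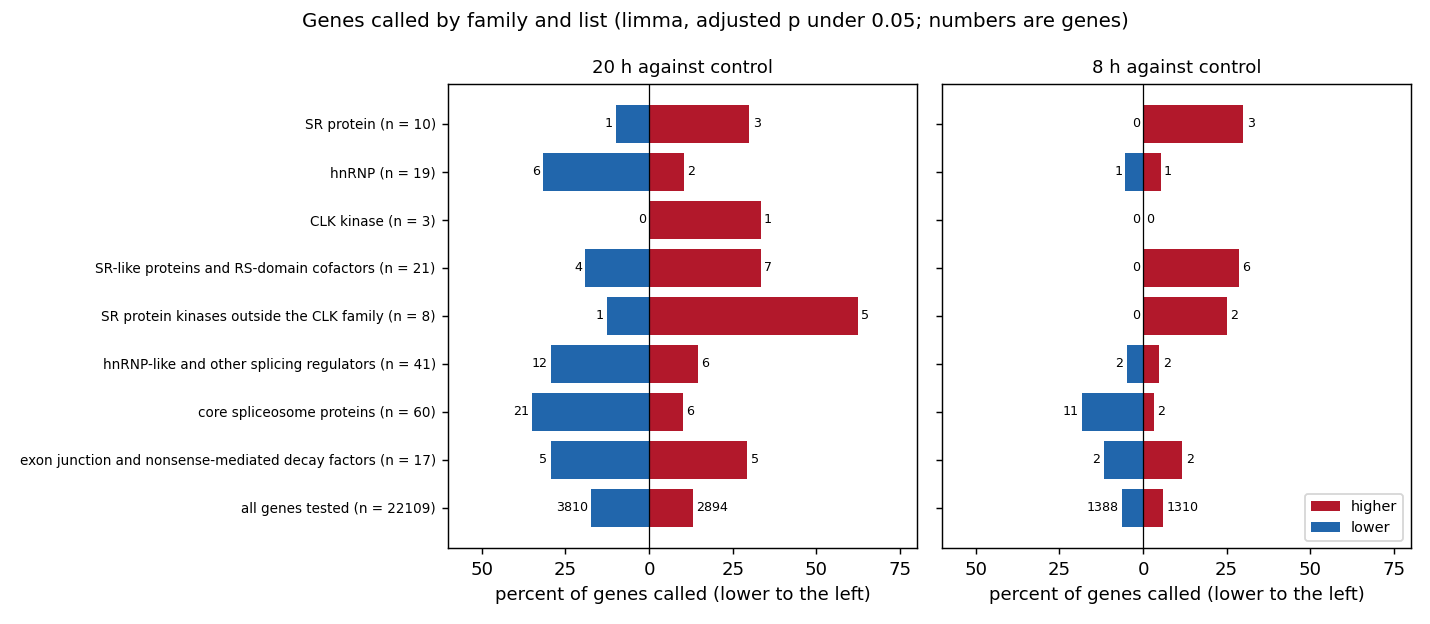
Percent of each family, each splicing list and all genes tested that were called higher (red, to the right) or lower (blue, to the left) at a limma adjusted p under 0.05, for 20 h against control and 8 h against control, with the number of genes at each bar and of genes measured (n) at each name. At 20 h, hnRNP genes had 6 lower and 2 higher and core spliceosome genes 21 lower and 6 higher, beside 3810 lower and 2894 higher of all genes.

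Marker genes of the line and of other cell types were read across the arrays. Levels of different probe sets cannot be set against each other, so they do not test the identity of the cells. The 5 mesenchymal line markers (VIM, CD44, AXL, CAV1 and EGFR) lay between 7.76 and 10.89, and their mean log2 level was 9.19 to 9.26 in 20 h cells, 9.18 to 9.23 in 8 h cells and 9.12 to 9.32 in control cells. EGFR was higher at 20 h (0.61) and 8 h (0.48), CAV1 was lower at both (-0.48 and -0.38), and CD44 was higher at 8 h (0.43). At 8 h CAV1 was lost without control replicate 1, 8 h replicate 1 or 8 h replicate 3.

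The 10 luminal markers ranged from 1.81, in PGR, to 8.12, in KRT19, with ESR1 between 2.59 and 3.25 and EPCAM between 5.81 and 6.29. Their mean was 4.45 to 4.53 in 20 h cells, 4.33 to 4.43 in 8 h cells and 4.38 to 4.53 in control cells. None was called at 20 h, and CDH1 was higher at 8 h (0.45). The luminal count at 8 h was 0 without any 1 of the controls or without 8 h replicate 2 or 3, and at 20 h it was 1 without 8 h replicate 1 or 20 h replicate 2.

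The 9 leukocyte markers ranged from 1.67, in CD3E, to 10.17, in CD68, a lysosomal protein that many other cells also make. PTPRC lay between 1.74 and 1.85 and was called in no comparison, and CD68 lay between 9.29 and 10.17. The mean of the 9 was 3.48 to 3.63 in 20 h cells, 3.39 to 3.40 in 8 h cells and 3.27 to 3.34 in control cells, without overlap. At 20 h, 4 were higher (CD14, CD68, CD3D and ITGAM, by 0.45 to 0.77) and at 8 h none, beside 13.1% and 5.93% of all genes called higher. Apart from CD68, these lay low: CD14 at 3.0 to 4.3, CD3D at 2.9 to 3.8 and ITGAM at 2.1 to 3.0. The 20 h arrays overlapped the controls for CD3D and ITGAM. The leukocyte count at 20 h was 1 without control replicate 1 or 20 h replicate 2, and 2 without control replicate 2, 8 h replicate 1 or 20 h replicate 3. Their part in the differences above was not tested. In bulk RNA, a change in the share of cells and a change in RNA per cell cannot be told apart.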

How the data were processed

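Each of the 9 samples was hybridised to 1 Affymetrix whole-transcript array. Per the submitters' processing notes, the authors made the deposited log2 values with RMA in Affymetrix Expression Console. Software versions and the genome build are not given in the sources used here.

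Of 53617 probe sets, 25713 were in the platform's gene table, 23558 of them with 1 symbol and 2155 with several, and 27904 were outside it. Probe sets with several symbols were left out. Where probe sets shared a symbol (617 symbols), the one with the highest mean over all arrays stood for the gene, leaving 22109 genes. RefSeq (GRCh38.p14) updated 3 symbols and did not hold 1215. No further normalization or filter was applied.

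A model with 1 mean per group was fitted across the 9 arrays (lmFit and eBayes, limma 3.58.1 under R 4.3.3). Tests were two-sided, with Benjamini-Hochberg adjustment over the 22109 genes and calls at an adjusted p under 0.05. The fit was tested on simulated data, where log2 changes of 0.5 were recovered less often than changes of 1. With 3 arrays a side, exact permutation reaches no p below 0.1. The number of arrays limits the precision.

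The 32 genes and the lists of splicing genes and markers were chosen with earlier results of these data known, and no list was tested as a set. Every one of the 32 genes could be named. Values by array are given for the CLK genes and for genes called with an absolute log2 difference of at least 0.5. From each other list, differences are given for at most 4 called genes per comparison, from those with the largest difference. A gene chosen in 1 comparison, such as TRA2A at 8 h, may have its difference in the other given as well, where other called genes differed more. The kinases listed outside the CLK family are all named. Alternatives were a further quantile normalization, centring on array medians, a trended and robust fit, array weights, a fit to only the arrays of the groups compared, other gene filters and probe set choices, the replicate block, 8 h replicates 1 and 2 counted as 1, and the omission of each array.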

Additional observations from a re-analysis of the deposited data

Results flagged for a closer look

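The effects at 20 h and 8 h, set against the same control arrays, differed by limma's test of 20 h against 8 h (adjusted p under 0.05) for 13 of the 32 genes. That is 40.6%, against 22.6% of all genes. Above the median level it was 41.4% of 29 genes, close to the 38.2% of all genes there. The log2 difference, 20 h minus 8 h, was above 0 for 4 of the 13 genes: 0.81 for HNRNPA0, 0.37 for SRSF7, 0.30 for SRSF2 and 0.30 for HNRNPAB. It was below 0 for 9: -0.88 for HNRNPA3, -0.71 for HNRNPA1L2, -0.59 for HNRNPLL, -0.49 for CLK4, -0.39 for SRSF5, -0.38 for HNRNPR, -0.37 for HNRNPM, -0.30 for SRSF4 and -0.26 for HNRNPD. Only the calls of HNRNPA0, HNRNPLL and HNRNPM held under every alternative run. Concentration and time differ together between these groups.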

How the results depend on the processing

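Of the 31 calls of the 32 genes over 3 comparisons, 14 held under every one of the 20 alternatives and 17 were lost under at least 1. No called gene changed sign. Some calls were also lost under alternatives other than the omission of an array, and not all of these losses are named above. Leaving out 1 array at a time, the 8 h against control counts ranged from 1 to 4 higher and 1 to 2 lower, the 20 h against control counts from 4 to 7 higher and 5 to 11 lower, and the 20 h against 8 h counts from 1 to 4 higher and 3 to 10 lower. With 8 h replicates 1 and 2 counted as 1, the higher count was 1 at 8 h against control and 1 at 20 h against 8 h, where the lower count was 5. A further quantile normalization also gave 5 lower at 20 h against 8 h. Array weights and the trended, robust fit each gave 2 lower at 8 h against control.

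No pairing by replicate number was seen: deviations of same-numbered arrays from their group means correlated between -0.318 and 0.111 over 11054 genes. Deviations within a group of 3 depend on each other, so these correlations cannot exclude a pairing. With the replicate block the counts were 4 higher and 1 lower at 8 h against control, 6 and 6 at 20 h against control, and 3 and 7 at 20 h against 8 h.

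SRSF8, whose probe set lists its symbol repeatedly, was added after seeing the data and was not called: its log2 differences were -0.04 for 20 h against control, -0.20 for 8 h against control and 0.16 for 20 h against 8 h. With 3 arrays a group, a gene not called may still differ, as its interval shows, and values near the bottom of the range limit what SRSF12, HNRNPA3 and HNRNPCL2 can show.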
